A study of Mus musculus with 12 samples.

Results

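The collagen genes of mouse liver were followed across genotype and diet. They are the 42 genes, of 18194 on the array, whose platform symbol reads Col, a number, the letter a and a number, and each is represented by its brightest probe set, that of highest average signal across all 12 arrays. A probe set is a group of short probes for 1 transcript, and its signal is a brightness on a linear scale. All samples were livers of adult female mice of the B6.129 background, each hybridised to 1 one-colour Affymetrix array. WT mice (Esr1+/+) and aERKO mice (Esr1-/-), which lack a working copy of the gene of estrogen receptor alpha, were fed for 2 weeks either NIH-31 diet (the normal diet) or the high-fat diet, whose fat supplies 60 kcal%. The 4 groups of 3 samples were WT on normal diet, WT on high-fat diet, aERKO on normal diet and aERKO on high-fat diet. The labels name no cell type to which the Esr1 mutation is restricted, and they leave unsaid whether the 3 samples of each group are 3 animals. The p-values below therefore reflect the spread among these samples alone, and that spread may be technical.

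Collagens are secreted proteins built from 3 polypeptide chains wound into a triple helix. Fibril-forming collagens such as types I and III give tissue its tensile strength, type IV collagen forms the mesh of basement membranes, and smaller families decorate fibrils, anchor membranes or form beaded filaments. In the liver, stellate cells and portal fibroblasts are the main makers of fibrillar collagen, sinusoidal endothelium and vessels contribute basement membrane chains, and collagen XVIII, the precursor of endostatin, is made largely by hepatocytes. Fibrillar collagen accumulates in liver fibrosis, of which fatty liver disease is a common setting.

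Esr1 signal lay between 1963 and 3930 in the 6 WT samples and between 586.1 and 885.3 in the 6 aERKO samples, so the labelled genotypes were separated by this transcript. Which part of the transcript its probes cover was not examined. Albumin, the main protein product of hepatocytes, had a signal of 68660 to 81700 in WT on normal diet and 46220 to 65570 in the other 9 arrays. Genes typical of pancreas or muscle were high on some arrays. For 8 genes of pancreatic acinar cells, log2 signal averaged over them reached 13.88 on the second WT array on normal diet and 13.6 on the first aERKO array on normal diet. On the third and the second WT array on high-fat diet it was 12.65 and 10.17, against 5.807 to 6.537 in the other 8 arrays. The mean log2 signal of 11 measurable skeletal muscle genes was 10.83 in aERKO normal replicate 1 and 9.3 in aERKO high-fat replicate 2, against 5.691 to 7.366 elsewhere. Results below are therefore also given without these arrays where that matters.

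Only 20 of the 42 collagen genes could be tested. A gene was tested when its signal exceeded the array's own median, which ranged from 75.6 to 114, on at least 3 of the 12 arrays. Of the 20, there were 12 above the median on every array (Col18a1, Col14a1, Col27a1, Col4a1, Col1a2, Col3a1, Col13a1, Col4a2, Col5a3, Col6a3, Col16a1 and Col5a1) and 8 above it on 3 to 11 arrays (Col12a1, Col5a2, Col6a1, Col4a5, Col25a1, Col6a2, Col7a1 and Col20a1). The other 22 were dim. Of these, 18 were above the median on no array and 4 (Col22a1, Col9a1, Col4a6 and Col2a1) on 1 or 2 arrays, and their mean signals lay between 7.72 and 64.2. A dim signal is no evidence that the transcript is missing, since a probe set can also respond poorly. Col1a1, which encodes the other chain of type I collagen, illustrates this. Both of its probe sets were dim, and the brighter one ranged from 9.777 to 83.32, so these arrays do not report on it although its partner chain gene Col1a2 was measured well. The remaining dim genes were Col11a1, Col11a2 and Col24a1 among the fibril-forming collagens, Col4a3 and Col4a4 of the basement membrane, Col9a2, Col9a3 and Col19a1 of the fibril-associated family, Col6a4, Col6a5, Col8a1, Col8a2 and Col10a1 of the network formers, the membrane and multiplexin collagens Col15a1, Col17a1 and Col23a1, and Col26a1. With no signal rule all 42 could be fitted, and limma again called 0 in each of the 5 planned comparisons. At an unadjusted p under 0.05 the dim genes were Col11a2 for genotype on normal diet, Col11a2 and Col23a1 on high-fat diet, Col6a4 for diet in WT and Col6a5 for diet in aERKO. These are 1, 2, 1 and 1 of 22 dim genes. Among genes that passed the signal rule, fitted without the dim ones, the shares at this p were 12.1%, 15.2%, 8.28% and 10.3%. The dim genes are thus not set apart by these counts.

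**Figure D1:**
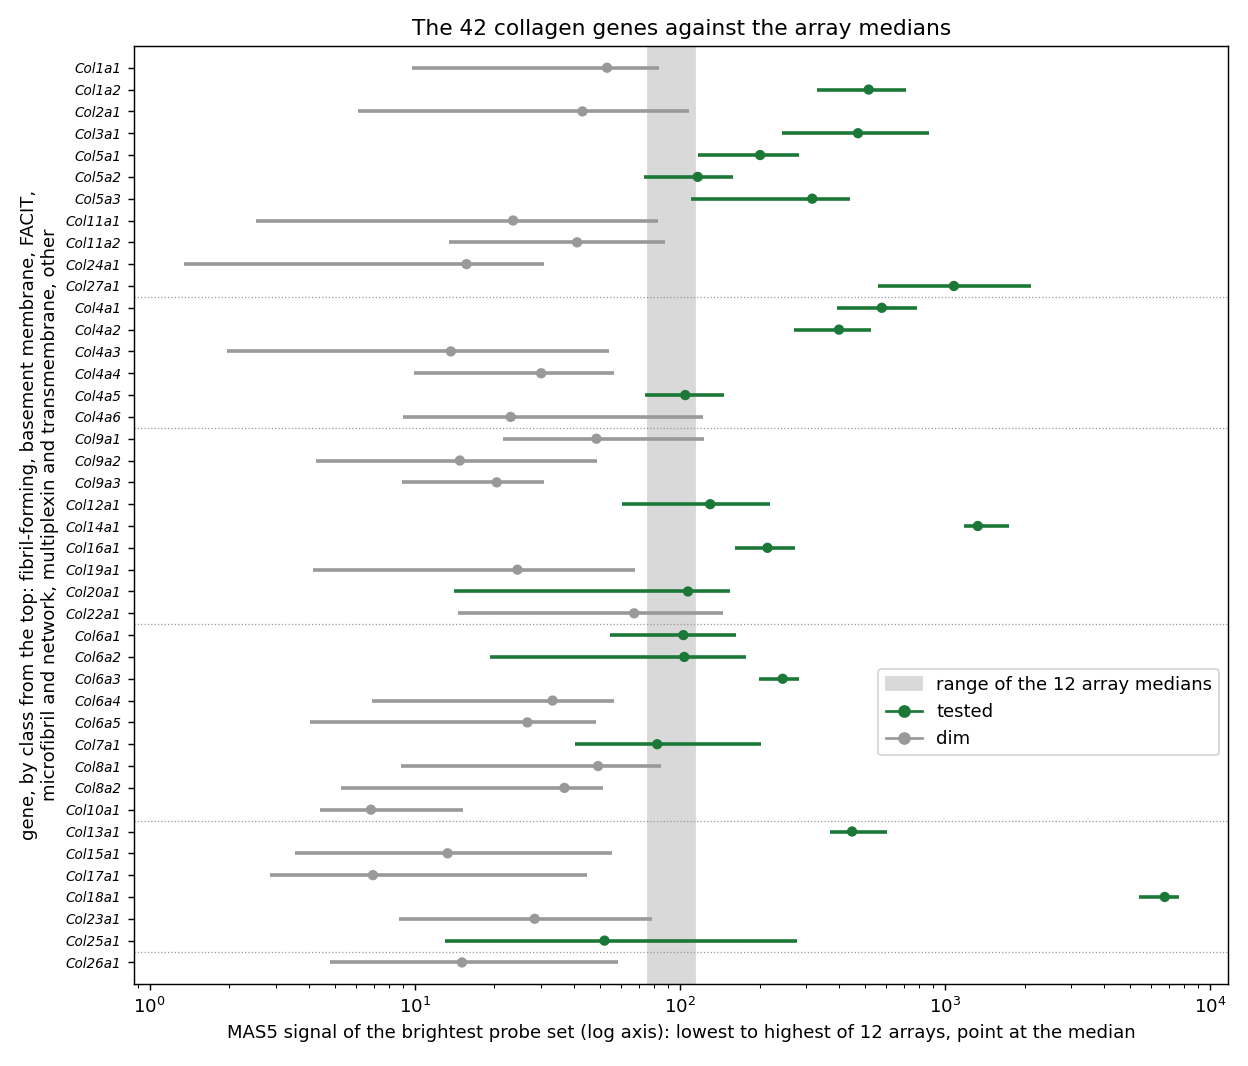
Signal of the brightest probe set of each of the 42 collagen genes on a log axis. Lines run from the lowest to the highest of the 12 arrays with the point at the median, green for the 20 tested genes and grey for the 22 dim ones, and the grey band spans the array medians, 75.6 to 114; genes are grouped by class and levels of different genes are not comparable.

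Differences were tested with limma on log2(signal + 16), a scale that understates changes of weakly expressed genes, with p-values adjusted by the Benjamini-Hochberg method over all 12264 genes that passed the signal rule, and calls were made where the adjusted p fell below 0.05. Asked whether a gene differed anywhere among the 4 groups (a moderated F test), limma called 1 of the 20 collagen genes, Col1a2, beside 3.42% of all genes. In pairwise comparisons limma called none. The count was 0 of 20 for aERKO against WT on normal diet (1.22% of all genes were called), 0 on high-fat diet (1.98%), 0 for diet in WT (0.0734%), 0 for diet in aERKO (0.481%) and 0 for the interaction, the diet difference in aERKO minus that in WT (0%). At an unadjusted p under 0.05 the counts were 1, 3, 1, 3 and 1 of 20, against 12.1%, 15.2%, 8.28%, 10.3% and 5.94% of all genes, so the collagen shares were near or below those of all genes, apart from diet in aERKO, where 3 genes passed. The median log2 difference of the 20 genes was -0.02 for genotype on normal diet, 0.11 for genotype on high-fat diet, -0.02 for diet in WT and 0.11 for diet in aERKO. Over all 12264 genes it was -0.05, -0.03, -0.0048 and 0.02. Of the 20 differences, 16 were positive for diet in aERKO and 9 for diet in WT, and 14 were positive for genotype on high-fat diet and 9 on normal diet. Diet in aERKO and genotype on high-fat diet share the aERKO high-fat samples, so these counts are not separate evidence.

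**Figure D2:**
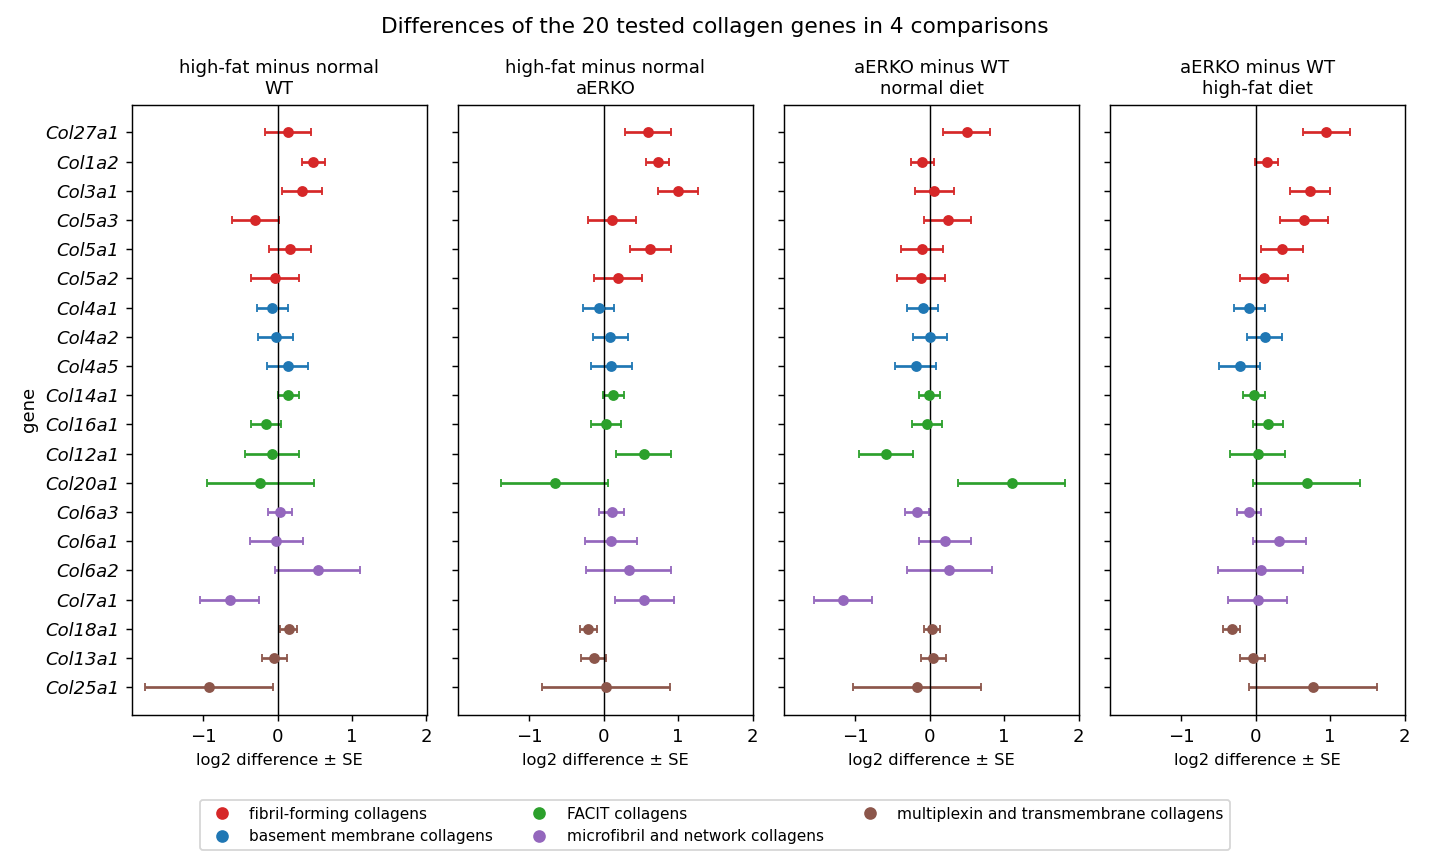
Log2 difference (point) and standard error (bar) of the 20 tested collagen genes in each of the 4 pairwise comparisons, coloured by class. In the panel of high-fat minus normal diet in aERKO the 6 fibril-forming genes all lie right of 0, from 0.11 to 0.995, and the 3 basement membrane genes lie within 0.11 of 0.

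The fibril-forming class held the clearest diet difference, and Col1a2 led it. Col1a2 encodes the alpha 2 chain of type I collagen, the main collagen of scar tissue. Its signal was 371.3, 467.3 and 439.2 in WT on normal diet, 629.8, 564.9 and 599.3 in WT on high-fat diet, 415.8, 448.9 and 328.7 in aERKO on normal diet, and 712.4, 709.7 and 578.3 in aERKO on high-fat diet. All 6 high-fat samples were above all 6 normal-diet samples, the lowest of the former at 564.9 and the highest of the latter at 467.3. The F test over the groups gave an adjusted p of 0.0291 (F = 10.4). The diet difference averaged over both genotypes, a comparison added after these values were seen, was 0.60 ± 0.11 (log2, SE), or 1.52-fold, with a limma adjusted p of 0.0212. In RNA of whole liver, more cells of a type and more RNA per cell cannot be told apart. In that comparison 0.946% of all genes were called, and 0.579% had every high-fat sample above every normal-diet sample. Within a genotype, the difference was 0.73 ± 0.156 in aERKO (adjusted p = 0.0673) and 0.48 ± 0.156 in WT (adjusted p = 0.417). The difference between these, 0.25 ± 0.221, had an adjusted p of 0.911, so a genotype difference in the diet response was not detected. Genotype itself left Col1a2 within the replicate spread, at -0.10 ± 0.156 on normal diet and 0.15 ± 0.156 on high-fat diet (adjusted p of 0.84 and 0.721).

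The call for Col1a2 sat close to the threshold. Without the 4 arrays with pancreatic transcripts the averaged diet difference was 0.69. That fit left WT high-fat replicate 1 alone in its group, the highest of the group at 629.8. Without the 2 arrays with the highest muscle scores the difference was 0.60. The call was lost in both with fewer arrays, and without the muscle arrays the adjusted p was 0.0856. Leaving out WT normal replicate 1, WT high-fat replicate 1 or 3, or aERKO high-fat replicate 1 or 2 also moved the adjusted p of the averaged difference above 0.05, at sizes of 0.56 to 0.60, while the F test lost its call without any of those or without WT high-fat replicate 2 or aERKO normal replicate 3. Averaging the log2 values of all 3 Col1a2 probe sets gave 0.36 (adjusted p = 0.55). The other 2 probe sets were dim, with means of 42.9 and 10.8, and the brighter of them was 0.77 higher on high-fat diet in aERKO with no overlap between the groups and 0.11 higher in WT.

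Col3a1, the single chain of type III collagen, which forms the fine reticular fibres of the hepatic sinusoids, showed its highest values in aERKO on high-fat diet. Its signal was 332.1, 505.3 and 244 in WT on normal diet, 523.6, 325.9 and 487.8 in WT on high-fat diet, 453, 377.9 and 275.1 in aERKO on normal diet, and 870.5, 784.7 and 584.5 in aERKO on high-fat diet. The 3 aERKO high-fat samples were above the other 9, whose values overlapped. The diet difference in aERKO was 0.995 ± 0.266 (1.99-fold) and the genotype difference on high-fat diet 0.73 ± 0.266 (1.66-fold), and neither passed after adjustment (adjusted p of 0.156 and 0.197, F test 0.0912). In WT the diet difference was 0.33 ± 0.266 (adjusted p = 0.799), and the interaction of 0.67 ± 0.377 was not called (adjusted p = 0.833). The 3 aERKO high-fat samples had low acinar scores, whereas 2 of the 3 WT high-fat samples had raised ones. The 2 arrays with the highest muscle scores were aERKO normal replicate 1 (Col3a1 at 453) and aERKO high-fat replicate 2 (784.7). Over 26 alternative settings, which include leaving out these 2 arrays, the diet difference in aERKO was 0.81 to 1.16. Without the 4 arrays with pancreatic transcripts the diet difference in aERKO was 1.15 (adjusted p = 0.125). The genotype difference on high-fat diet was then 0.48 (adjusted p = 0.593), against WT high-fat replicate 1 alone, the highest of its group, which is assumed to vary like the other groups. The part of the other tissues in the diet and genotype differences was not tested. The dim second probe set of Col3a1, with a mean of 40, was 1.02 higher on high-fat diet in aERKO with no overlap.

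The sequences upstream of these 2 genes are shown because they were the fibrillar genes with the largest diet differences in aERKO. Each is the 250 bases before the annotated start in RefSeq (build GRCm38.p6, plus strand, 5′ to 3′), and capitals mark matches to 4 motifs searched on both strands. These were the TATA box, spelled TATAAA, the motif CCAAT of a common promoter box, the GC box, spelled GGGCGG, and the palindromic estrogen response element with a spacer of any bases.
Col1a2, chr6:4505368-4505617: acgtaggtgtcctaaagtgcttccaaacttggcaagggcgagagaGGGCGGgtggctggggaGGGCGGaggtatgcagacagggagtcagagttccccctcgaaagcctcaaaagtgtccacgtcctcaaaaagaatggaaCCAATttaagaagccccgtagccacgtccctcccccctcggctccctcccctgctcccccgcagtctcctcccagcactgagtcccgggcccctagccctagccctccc
Col3a1, chr1:45311288-45311537: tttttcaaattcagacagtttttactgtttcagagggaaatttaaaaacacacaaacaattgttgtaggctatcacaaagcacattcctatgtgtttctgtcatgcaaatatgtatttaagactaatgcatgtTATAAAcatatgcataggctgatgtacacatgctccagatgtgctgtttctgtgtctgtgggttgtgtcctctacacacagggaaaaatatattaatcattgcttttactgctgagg
The Col1a2 window held 2 GC boxes, starting 205 and 188 bases upstream, and 1 CCAAT box at 109 bases. The Col3a1 window held 1 TATA box at 117 bases. No match overlapped another in either window, and neither window held the estrogen response element. Of 32851 promoter windows of this length, 32.7% held GGGCGG, 33.8% CCAAT, 12.4% TATAAA and 0.0639% the estrogen response element. Among the 36 windows of the 33 collagen genes found in the table, 21 held GGGCGG, 13 CCAAT, 5 TATAAA and 0 the estrogen response element. A match is a description of letters and not of a bound site.

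Col27a1, the chain of a fibrillar collagen best known from cartilage, was measured on every array. Its signal was 571.7, 1146 and 558.8 in WT on normal diet, 1325, 609 and 613.1 in WT on high-fat diet, 1021, 899.4 and 1143 in aERKO on normal diet, and 1368, 1272 and 2115 in aERKO on high-fat diet. Each WT group had 1 sample near the aERKO range and 2 samples far lower, and aERKO and WT overlapped on both diets. The genotype difference was 0.95 ± 0.314 on high-fat diet (adjusted p = 0.154) and 0.50 ± 0.314 on normal diet (adjusted p = 0.577). Averaged over diets it was 0.72 ± 0.222 (adjusted p = 0.0844), and it passed when either of the 2 high WT samples was left out (adjusted p of 0.0279 without WT normal replicate 2 and 0.0232 without WT high-fat replicate 1). Without the 4 arrays with pancreatic transcripts the difference on high-fat diet was 0.22 (adjusted p = 0.821), with WT high-fat replicate 1 alone left in its group. On high-fat diet aERKO was above aERKO on normal diet without overlap, by 0.60 ± 0.314 (adjusted p = 0.551). A second Col27a1 probe set, bright on all 12 arrays, overlapped in that comparison, at 275.6 to 351.6 on normal and 294.1 to 580.9 on high-fat diet. On normal diet it was higher in aERKO than in WT without overlap (0.34), unlike the brightest.

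The type V chains regulate the width of type I fibrils. Col5a1 signal was 134.8 to 183.8 in aERKO on normal diet and 224.5 to 280.6 in aERKO on high-fat diet, a difference of 0.63 ± 0.281 (adjusted p = 0.449) with no overlap. In WT it ranged from 121.7 to 218.1 on normal diet and from 116.7 to 249.8 on high-fat diet, and the groups overlapped. A second Col5a1 probe set, also bright on every array, was 0.42 higher in aERKO on high-fat than on normal diet without overlap. Col5a2 (73.46 to 158.2 over all arrays) and Col5a3 (110.3 to 439.4) overlapped between the diets in both genotypes. In all, the diet difference in aERKO was positive for 6 of 6 tested fibril-forming genes, with a median of 0.61 against 0.02 over all genes. By their brightest probe sets, 4 of the 6 did not overlap between the groups (Col1a2, Col3a1, Col5a1 and Col27a1), a relation that 9.07% of all genes showed in this direction. In WT the median was 0.155, 4 of 6 were positive, and 1 (Col1a2) did not overlap, against 7.03% of all genes. The interaction was positive for 6 of 6, with a median of 0.43 and none called. For genotype on high-fat diet 6 of 6 were positive with a median of 0.50, and on normal diet 3 of 6 with a median of -0.02. Diet in aERKO, the interaction and genotype on high-fat diet share the aERKO high-fat samples, so these counts are not separate evidence. Genes measured on the same arrays are not replicates either. Signs changed under 1 of 26 alternative settings for Col5a2 and for Col5a3 in the aERKO diet comparison, and under none for the other 4. For genotype on high-fat diet the sign changed under 1 setting for Col5a1 and 5 for Col5a2.

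**Figure D3:**
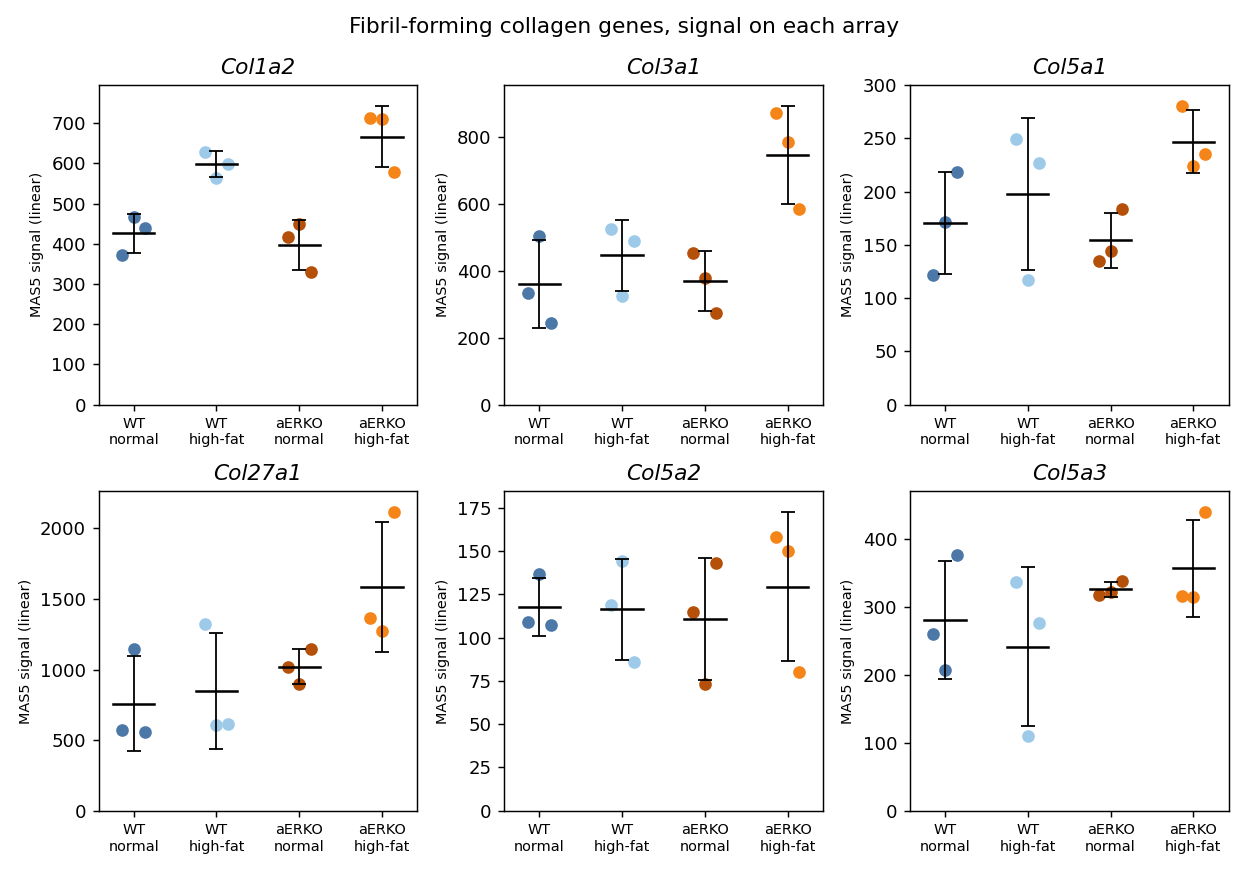
MAS5 signal (linear axis from 0) of the 6 tested fibril-forming genes in each of the 12 samples, with the group mean (line) and SD (bar) over 3 samples. The 6 high-fat points of Col1a2 lie at 564.9 or more and its normal-diet points at 467.3 or less, while the Col3a1 points above 580 are those of aERKO on high-fat diet.

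Markers of the cells that make fibrillar collagen were measured on the same arrays. Of 13 stellate cell markers 11 passed the signal rule (Ngfr and Bmp10 were dim), and their summed signal was 13310 to 14070 in WT on normal diet, 15280 to 18430 in WT on high-fat diet, 13210 to 13880 in aERKO on normal diet and 13690 to 16080 in aERKO on high-fat diet. The sum was thus higher on high-fat diet in WT without overlap, and overlapped in aERKO. Bright genes carry most of such a sum, and the mean log2 signal of the same 11 markers overlapped in WT, at 9.22 to 9.31 on normal and 9.1 to 9.67 on high-fat diet. The members also differed among themselves. In WT, Lrat was 479.6 to 652.1 on normal and 807.1 to 1024 on high-fat diet, without overlap. Rgs5 (1788 to 2411, then 2773 to 3207) and Colec11 (3480 to 4673, then 5233 to 5799) were also higher without overlap. Over all genes 7.03% were higher in this way. The other tested stellate markers overlapped in WT. Des, which encodes desmin, lay between 143.3 and 233.3 on normal diet but at 273.5, 21.82 and 34.04 on high-fat diet. In aERKO, Lrat was also higher on high-fat diet without overlap, at 284.7 to 683.4, then 725.2 to 817.2. Hand2 was lower there without overlap, at 315 to 462.9, then 249.6 to 310.3. Over all genes 9.07% were higher and 7.66% lower in this way in aERKO. The other tested stellate markers overlapped in aERKO. No stellate marker was called in a pairwise comparison with limma, and 3 of 11 had an unadjusted p under 0.05 for diet in WT, where 8.28% of all genes did. The 6 measurable markers of activated stellate cells and myofibroblasts (Lox and Cnn1 were dim) summed to 1336 to 2032 on normal diet and 1361 to 2383 on high-fat diet over both genotypes, with overlap and none called. The 6 measurable portal fibroblast markers (Thy1, Gli1 and Pi16 were dim) had positive log2 differences for diet in aERKO, with a median of 0.28 and none called. Their summed signal overlapped, at 732.3 to 1121 on normal and 778 to 1286 on high-fat diet, and the linear mean of Mgp was 214.9 against 210.6. Hepatocyte markers differed between the groups too. The summed signal of 6 was 380900 to 384300 in WT on normal diet, 311600 to 355500 in WT on high-fat diet, 286500 to 335800 in aERKO on normal diet and 268800 to 329500 in aERKO on high-fat diet. For diet in WT all 6 log2 differences were negative, with a median of -0.25, 0 called and 2 at an unadjusted p under 0.05, and the F test called 1 of the 6. The part of all these cells in the collagen differences was not tested.

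The brightest probe sets of the basement membrane chains overlapped between the groups in every pairwise comparison. Col4a1 and Col4a2 encode the 2 chains of the type IV collagen found in nearly all basement membranes. Col4a1 signal was 540.2, 584.3 and 683 in WT on normal diet, 604.5, 518.1 and 592.4 in WT on high-fat diet, 782.2, 392.1 and 572.6 in aERKO on normal diet, and 562.4, 589.5 and 463.3 in aERKO on high-fat diet. Col4a2 signal was 320.6, 320.5 and 525.7, then 408.2, 309.1 and 406.7, then 491, 270.9 and 408.6, then 391, 386.3 and 439.2 in the groups in the same order. Both genes were lowest in aERKO normal replicate 2, Col4a1 was highest in aERKO normal replicate 1 and Col4a2 in WT normal replicate 3, and all groups overlapped. By the brightest probe sets, their pairwise differences lay between -0.09 and 0.12 with standard errors of 0.206 and 0.232. A second Col4a1 probe set, above the array median on all 12 arrays, differed more. It was 0.51 higher for diet in aERKO and 0.35 higher for genotype on high-fat diet, with overlap in both. Col4a5, a chain best known from the kidney filter, ranged from 74.09 to 146.4, with differences between -0.22 ± 0.276 and 0.14 ± 0.276. A second Col4a5 probe set, above the array median on 6 arrays, was 58.43 to 88.53 in WT on normal diet and 91.43 to 129.5 in WT on high-fat diet, without overlap (0.50). For the brightest probe sets of these 3 genes limma gave adjusted p-values of 0.778 or higher in the pairwise comparisons.

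The fibril-associated collagens, which sit on the surface of larger fibrils, also showed no call. Col14a1, known to bind to type I fibrils, had a signal of 1177, 1319 and 1449 in WT on normal diet, 1525, 1304 and 1542 in WT on high-fat diet, 1206, 1316 and 1402 in aERKO on normal diet, and 1742, 1245 and 1344 in aERKO on high-fat diet. Its diet difference was 0.15 ± 0.142 in WT and 0.13 ± 0.142 in aERKO, within overlapping groups. A second Col14a1 probe set, above the array median on all 12 arrays, differed by -0.41 for diet in WT and 0.06 in aERKO. For genotype on high-fat diet it differed by 0.42, against -0.02 for the brightest, and its groups overlapped too. Col12a1, whose product also coats type I fibrils, had a signal of 107.9, 132.8 and 177 in WT on normal diet, 132.8, 127.7 and 126.4 in WT on high-fat diet, 76.04, 60.53 and 132.9 in aERKO on normal diet, and 68.51, 218.2 and 146.5 in aERKO on high-fat diet. Values in aERKO were scattered on both sides of those of WT, and the largest difference, -0.59 ± 0.368 for genotype on normal diet, had an adjusted p of 0.574. Col16a1 lay between 161.2 and 273.1, and its largest difference was 0.16 ± 0.202. Col20a1 jumped between 14.05 and 154.3. Its brightest WT sample was at 138.7 on normal and 127.8 on high-fat diet, against 131.3 and 154.3 in aERKO. The standard error of Col20a1, 0.719, leaves its differences unresolved. Further probe sets of these 2 genes went against the brightest ones on high-fat diet. The second of Col12a1 was at a difference of -1.09 for aERKO minus WT without overlap and the second of Col20a1 at -1.19, whereas the brightest differed by 0.03 and 0.68.

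Among the microfibril and network formers, Col6a1, Col6a2 and Col6a3 encode the chains of type VI collagen, a beaded filament that surrounds cells. Col6a3 had a narrow range of 199.1 to 281.8, and in aERKO on normal diet (199.1 to 241.7) it lay below WT on normal diet (243.4 to 281.8) without overlap, at a difference of -0.17 ± 0.164 (adjusted p = 0.718). Col6a1 (54.73 to 162.4) and Col6a2 (19.3 to 177.1) crossed the array median and overlapped in all pairwise comparisons. Col7a1, the anchoring fibril collagen of skin, was near the median. Its signal was 105.2, 91.53 and 201.8 in WT on normal diet, 60.68, 77.63 and 88.09 in WT on high-fat diet, 60.92, 42.36 and 40.15 in aERKO on normal diet, and 42.99, 86.78 and 113.8 in aERKO on high-fat diet. WT on normal diet was above both WT on high-fat diet and aERKO on normal diet without overlap, and 7.31% of all genes were lower on high-fat diet in WT in this way. The genotype difference on normal diet was -1.16 ± 0.395, the lowest of the 20 genes, with an adjusted p of 0.237, and on high-fat diet it was 0.02 ± 0.395. The interaction of 1.19 ± 0.559 was not called (adjusted p = 0.817). The 2 genes lower without overlap for genotype on normal diet were Col7a1 and Col6a3, beside 9.62% of all genes, a share close to 2 of 20.

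Col18a1, the multiplexin of basement membranes that hepatocytes make, was lower in aERKO than in WT on high-fat diet without overlap, though not past the threshold. Its signal was 6699, 6808 and 6654 in WT on normal diet, 7621, 7584 and 7173 in WT on high-fat diet, 6330, 6709 and 7619 in aERKO on normal diet, and 5507, 5405 and 7094 in aERKO on high-fat diet. WT was higher on high-fat than on normal diet without overlap, whereas aERKO groups overlapped, and 2 of the 3 aERKO high-fat samples were lower than every other sample. The genotype difference on high-fat diet was -0.32 ± 0.111 (adjusted p = 0.168), and on normal diet 0.03 ± 0.111. The interaction, -0.35 ± 0.157, had an unadjusted p of 0.0402 and an adjusted p of 0.817. Without aERKO high-fat replicate 3, the highest of its group, the genotype difference on high-fat diet was -0.45 and passed (adjusted p = 0.0325). This difference was called in 2 of 26 alternative settings, with sizes from -0.45 to -0.22. A second bright probe set with a mean signal of 4804 differed by -0.45 between aERKO and WT on high-fat diet, again without overlap. On high-fat diet Col18a1 was the 1 tested collagen gene lower in aERKO without overlap, beside 12.5% of all genes, and Col3a1 the 1 higher, beside 10%.

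The transmembrane collagens were measured less evenly. Col13a1, found at cell-matrix junctions, had a signal of 369.7, 444.4 and 606 in WT on normal diet, 443.1, 466.9 and 438.5 in WT on high-fat diet, 472.5, 518.2 and 449.1 in aERKO on normal diet, and 467.8, 436.5 and 405.8 in aERKO on high-fat diet. All groups overlapped, and no pairwise difference was larger than 0.13 ± 0.168 in size. Col25a1 varied from 12.97 to 276.2, was above the median on 4 arrays, and had a standard error of 0.859, so no difference could be resolved.

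**Figure D4:**
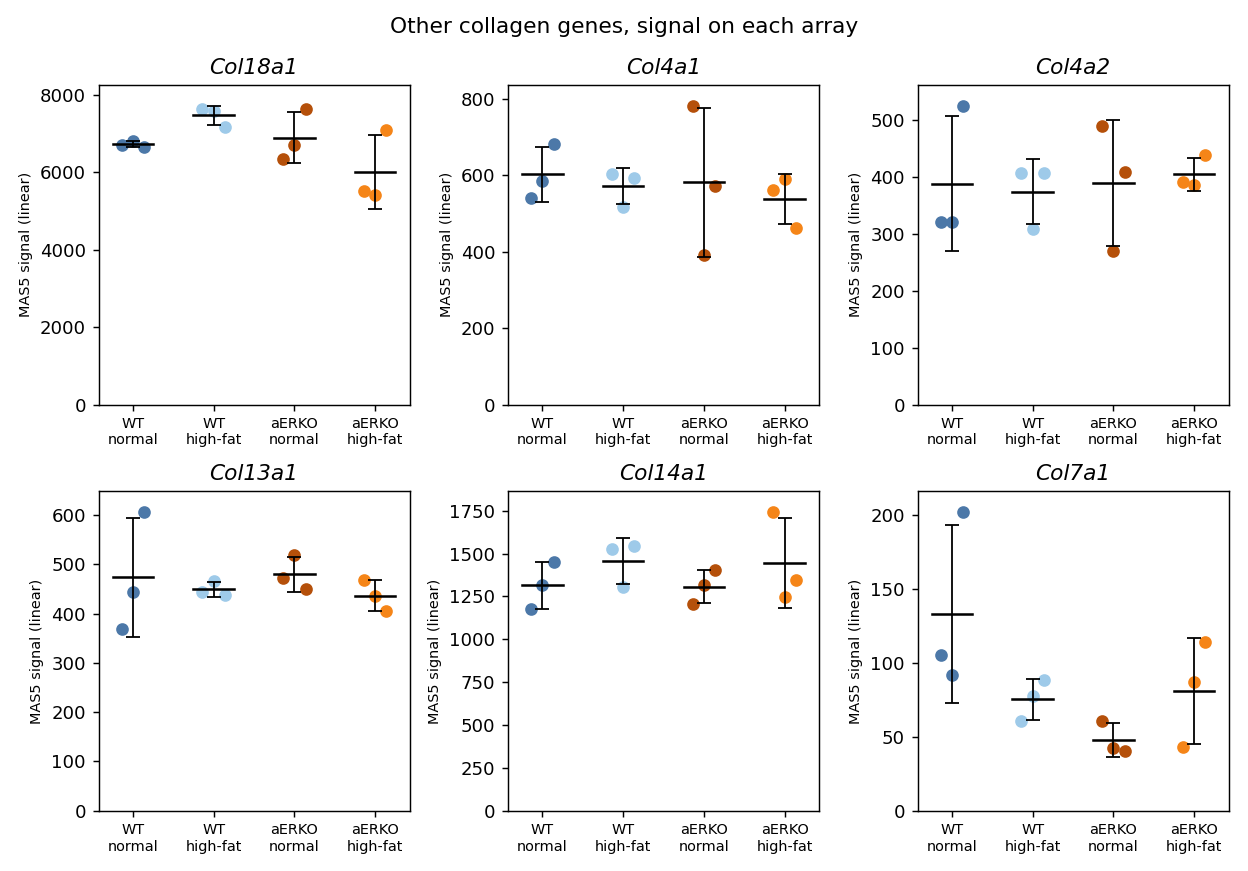
MAS5 signal (linear axis from 0) of 6 collagen genes of other classes in each sample, with the group mean (line) and SD (bar) over 3 samples. The 3 WT high-fat points of Col18a1 lie at 7173 to 7621, above the WT normal-diet points at 6654 to 6808, and the groups of Col4a1, Col4a2, Col13a1 and Col14a1 overlap.

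Collagen needs folding helpers before secretion. Of 20 listed genes of collagen modification and folding on the array, 15 were tested and 0 were called in a pairwise comparison. Unadjusted, 5 of 15 passed 0.05 for diet in aERKO, 4 of them higher, against 10.3% of all genes. P4hb, a subunit of prolyl hydroxylase, was 22860 to 26510 in WT on normal diet, 20710 to 23160 in WT on high-fat diet, 20870 to 25340 in aERKO on normal diet and 25310 to 27510 in aERKO on high-fat diet, a genotype difference on high-fat diet of 0.26 ± 0.09 (adjusted p = 0.175). Pdia3, a disulfide isomerase, was 8138 to 10800 in aERKO on normal diet and 10810 to 12230 on high-fat diet (0.29 ± 0.121, adjusted p = 0.416). Serpinh1, the collagen-specific chaperone HSP47, was picked after its values were seen. Its signal was 223, 248.8 and 352.8 in aERKO on normal diet and 464.9, 434.4 and 358.8 in aERKO on high-fat diet, and the groups did not overlap, with a difference of 0.60 ± 0.257 (adjusted p = 0.422). In WT it was 175 to 356.8 on normal and 211.4 to 317.8 on high-fat diet. Of 6 tested genes of procollagen processing and crosslinking, 0 were called. Tgm2, a crosslinking transglutaminase, differed between diets by -0.31 ± 0.14 in WT and -0.29 ± 0.14 in aERKO (adjusted p of 0.575 and 0.5), and Bmp1, the procollagen C-proteinase, ranged from 711.3 to 1119 with overlap in all comparisons.

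The small proteoglycans, which bind to collagen fibrils, held the strongest genotype difference of the matrix lists. Of 8 tested members, limma called 1 for genotype on normal diet, beside 1.22% of all genes, and 2 on high-fat diet, beside 1.98%. Omd encodes osteomodulin, a small keratan sulfate proteoglycan. Its signal was 13.07, 33.61 and 48.54 in WT on normal diet, 39.07, 45.46 and 60.57 in WT on high-fat diet, 286.6, 210 and 298.8 in aERKO on normal diet, and 477.3, 380.1 and 451.6 in aERKO on high-fat diet. Every aERKO sample was at 210 or more and every WT sample at 60.57 or less. Omd rose in aERKO by 2.62 ± 0.308 on normal diet (6.14-fold, adjusted p = 0.000298) and by 2.82 ± 0.308 on high-fat diet (7.06-fold, adjusted p = 0.000151). The WT signals were below the array median, so the size is imprecise. Omd thus passed the signal rule only through the aERKO samples, in which it was high. It was called in 26 of 26 alternative settings of both comparisons, with sizes of 1.79 to 3.19 on normal diet. Given how Omd passed the rule, its calls and its part in the list counts are no independent support. Bgn (biglycan) fell in aERKO on high-fat diet by 0.62 ± 0.149 (adjusted p = 0.0494). Its signal was 1576, 2155 and 2063 in WT on normal diet, 2182, 1821 and 2036 in WT on high-fat diet, 1492, 1559 and 1152 in aERKO on normal diet, and 1407, 1223 and 1265 in aERKO on high-fat diet, so every aERKO sample was below every WT sample. Averaged over diets the Bgn difference was -0.54 ± 0.105 (adjusted p = 0.00953). That call was lost without the 4 arrays with pancreatic transcripts (-0.58, adjusted p = 0.0994), with acinar and muscle scores as covariates (0.0828), with median centring (-0.42, 0.122) and with the mean of probe sets (-0.32, 0.0549). On high-fat diet alone Bgn was called in 8 of 26 alternative settings. Without the 4 arrays the difference there, again against WT high-fat replicate 1 alone, was -0.74 (adjusted p = 0.253), and with the replicate number as a block its adjusted p was 0.0814. Dropping any WT high-fat or any aERKO high-fat sample, WT normal replicate 2 or aERKO normal replicate 2 also ended that call, at sizes of -0.57 to -0.69. Of 2 other bright Bgn probe sets, 1 was lower in aERKO on both diets without overlap (-0.16 and -0.39) and the other overlapped (-0.16 and -0.11). Dcn (decorin) ranged from 7717 to 12360 and overlapped in every comparison.

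Of 12 tested genes of matrix degradation and its inhibitors, 0 were called in a pairwise comparison and 1, Mmp14, in the genotype comparison averaged over diets, where 4.32% of all genes were called, and 2.26% were called lower. Mmp14 encodes a membrane-bound collagenase. Its signal was 1312, 1329 and 1417 in WT on normal diet, 1417, 1291 and 1360 in WT on high-fat diet, 972.2, 879.5 and 1252 in aERKO on normal diet, and 1101, 861.4 and 778.9 in aERKO on high-fat diet. All 6 aERKO samples lay below all 6 WT samples, which 1.64% of all genes showed. Mmp14 fell by 0.49 ± 0.108 (adjusted p = 0.0202), and the call held in 16 of 25 alternative settings. It was lost without the 4 arrays with pancreatic transcripts (-0.51, adjusted p = 0.203), with median centring (-0.36, 0.168), with acinar and muscle scores as covariates (-0.45, 0.138) and without the 2 arrays with the highest muscle scores (-0.45, 0.0932). The adjusted p was 0.0583 without WT high-fat replicate 1, 0.0536 without aERKO normal replicate 2 and 0.0591 without aERKO high-fat replicate 2. A second bright Mmp14 probe set was lower in aERKO without overlap on both diets (-0.88 and -0.47). On each diet the difference of the brightest was -0.40 ± 0.152 and -0.58 ± 0.152 (adjusted p of 0.306 and 0.0737). Timp3, a matrix-bound inhibitor of these proteases, was 801.2 to 1026 in WT and 622.3 to 746 in aERKO on high-fat diet (-0.43 ± 0.171, adjusted p = 0.243). Macrophage markers had differences of the same sign as Bgn and Mmp14. All 8 had negative log2 differences on both diets, with 0 called in either. Averaged over diets 1 of 8 was called lower and 6 had an unadjusted p under 0.05, beside 19.6% of all genes (11.5% lower). The median of the 8 was -0.34, and their summed signal was 18900 to 25330 in WT and 13090 to 19620 in aERKO. The part of macrophages in these differences was not tested.

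**Figure D5:**
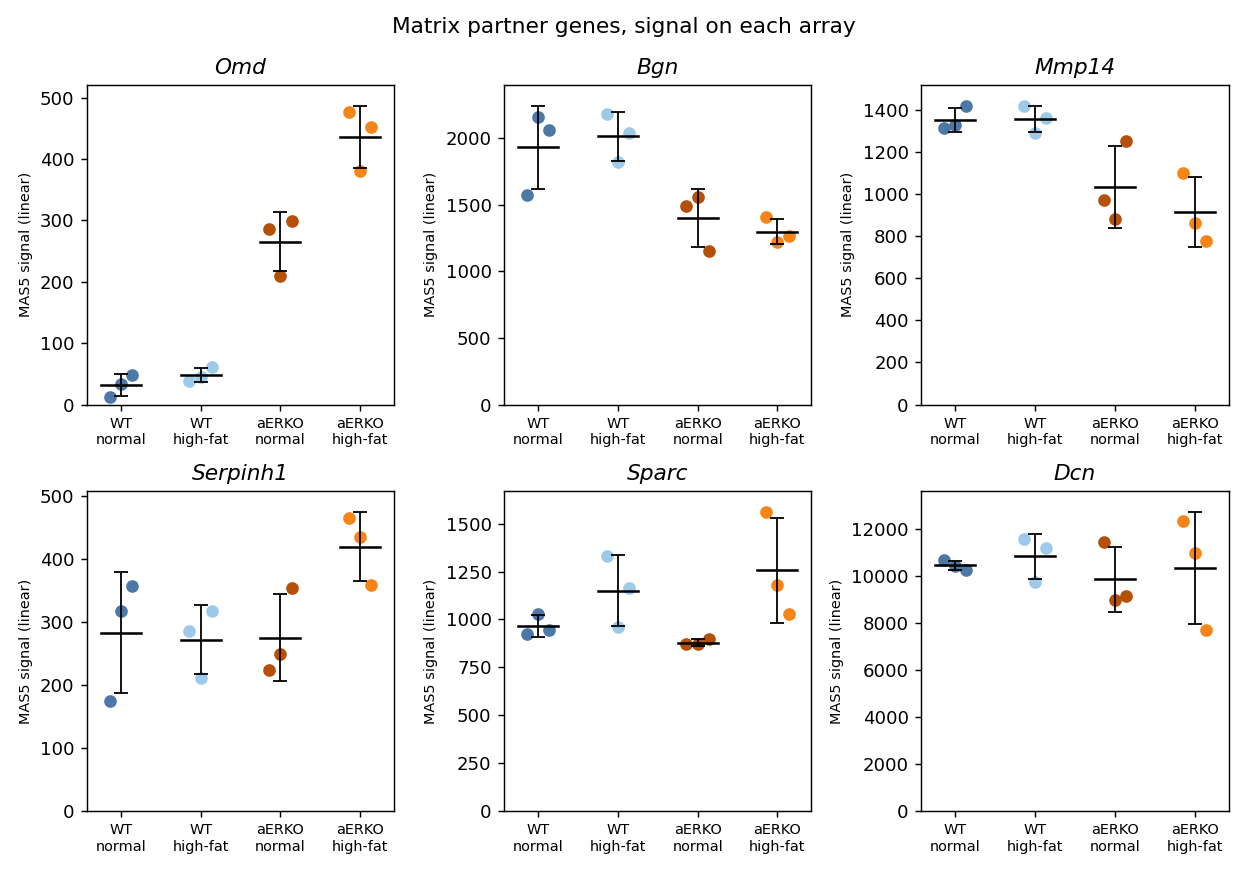
MAS5 signal (linear axis from 0) of 6 genes that act with collagen in each sample, with the group mean (line) and SD (bar) over 3 samples. Omd lies at 60.57 or less in WT and at 210 or more in aERKO, Bgn and Mmp14 are lower in every aERKO sample than in every WT sample, and the Serpinh1 points of aERKO on high-fat diet lie at 358.8 to 464.9.

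The remaining matrix lists had no call in the pairwise comparisons. Among 14 tested basement membrane partners, Sparc, a collagen-binding matricellular protein, was 869.2 to 898 in aERKO on normal diet and 1029 to 1561 in aERKO on high-fat diet, without overlap (0.49 ± 0.158, adjusted p = 0.25), and 924.1 to 1031 against 960.3 to 1330 in WT. Hspg2, which encodes perlecan, ranged from 480.1 to 957.1 with overlap. Of 19 tested glycoproteins and elastic fibre genes, Fn1 (fibronectin) was 21020 to 24580 in aERKO on normal diet and 16780 to 19270 in aERKO on high-fat diet (-0.30 ± 0.103, adjusted p = 0.295), while Vtn (vitronectin) ranged from 32890 to 41930. The Fn1 and Col1a2 differences on high-fat diet in aERKO thus had opposite signs. Of 8 tested collagen receptors, Cd36, also a fatty acid transporter of hepatocytes, was 2870 to 6042 in WT and 6160 to 12040 in aERKO on high-fat diet (1.10 ± 0.279, adjusted p = 0.0611), and Sdc1 (syndecan 1) was 11340 to 12520 in WT and 9296 to 11150 in aERKO on normal diet (-0.25 ± 0.136, adjusted p = 0.5). TGF-beta is the main inducer of collagen transcription in stellate cells. Of 14 tested ligands, receptors and targets, 0 were called, and the median difference was 0.02 for diet in aERKO and 0.10 in WT. Smad4 ranged from 1728 to 2594 and Tgfbr1 from 1883 to 2367, and both were lower in aERKO than in WT on high-fat diet without overlap (-0.19 ± 0.123 and -0.21 ± 0.106, adjusted p of 0.508 and 0.386). Of the same list Tgfbr3, described below, was also lower in this way, and Pdgfra was higher (0.21 ± 0.137, adjusted p = 0.521). Over all genes 12.5% were lower and 10% higher without overlap in this comparison.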

How the data were processed

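The authors deposited 1 table of MAS5 intensity values, 1 column for each of the 12 arrays, and per the submitters' processing notes these were made with Affymetrix Expression Console and MAS5, with no version named. The mean of each array's intensity values, after trimming 2% at each end, was 500, so arrays arrive scaled to a common level. Of 45101 probe sets, 34958 carried 1 gene symbol in the platform annotation, 932 carried several and 9211 were not listed. Probe sets with 1 symbol gave 18194 genes, each represented by its brightest probe set. Levels of different probe sets were not compared.

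Values were used as log2(signal + 16). A mean for each of the 4 groups was fitted over all 12 arrays with limma 3.58.1 in R 4.3.3 (lmFit, and eBayes with an intensity trend), on 12264 genes above the array median on at least 3 arrays, with Benjamini-Hochberg adjustment over all of them and a threshold of 0.05. The code was tested on simulated data. The tests had 8 residual degrees of freedom and a median standard error of 0.202 for a difference between 2 groups, so the number of arrays limits the precision. Every collagen gene is named. Values in every sample were planned for the 8 brightest tested members, those called and the 2 with the smallest p in each comparison, and from the matrix lists for the called genes, or otherwise the 2 brightest. Others were picked after their values were seen. The members and gene lists were chosen with earlier results of these data known. The fit was repeated under 25 other settings. The comparisons averaged over genotypes or diets and the omission of the 2 arrays with the highest muscle scores were added after seeing the data. Same-numbered samples did not deviate together (correlations from -0.296 to 0.212, 4 of 18 pairs over 0.1), so the numbers were not treated as pairs, and no 2 arrays held identical values. Array correlations were 0.939 to 0.963 within groups and 0.933 to 0.963 between groups. Promoter windows came from RefSeq, where 33 of the 42 genes were matched by symbol.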

Additional observations from a re-analysis of the deposited data

How the results depend on the processing

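In the 5 planned comparisons the count of called collagen genes stayed at 0 in all alternatives with these exceptions. With array quality weights it was 2 for genotype on high-fat diet (Col18a1, Col3a1) and 2 for diet in aERKO (Col1a2, Col3a1), and leaving out 1 array at a time gave 0 to 1 for genotype on high-fat diet, the 1 being Col18a1 without aERKO high-fat replicate 3. The averaged diet comparison, with 1 call, gave 0 with median centring, no intensity trend, the mean of probe sets, without the 4 arrays with pancreatic transcripts or without the 2 arrays with the highest muscle scores, and 0 to 2 when 1 array was left out. The genotype comparison averaged over diets gave 0 to 1 when 1 array was left out. The F test, with 1 call, gave 0 with no filter, median centring, no intensity trend, the mean of probe sets, acinar and muscle scores as covariates, or without the 2 arrays with the highest muscle scores. It gave 2 with array quality weights (Col1a2, Col3a1) and without the 4 arrays with pancreatic transcripts (Col27a1, Col3a1), and 0 to 2 when 1 array was left out, the 2 being Col1a2 and Col3a1 without WT normal replicate 2. The cause was not tested.

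Median centring shifted the median of all genes by 0.14 for genotype on normal diet, 0.10 on high-fat diet and 0.12 averaged over diets, and the collagen median to 0.123 on normal diet and 0.164 averaged over diets. Relative to all genes the collagen median was 0.03 on normal diet under both scalings. For diet in WT the collagen median ranged from -0.0559 to 0.115 when 1 array was left out. No called value changed sign.

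Calls over all genes ranged from 71 to 158 for genotype on normal diet, 60 to 944 on high-fat diet, 0 to 21 for diet in WT, 12 to 187 for diet in aERKO and 0 to 2 for the interaction. With the replicate number as a block the F test still called 1 collagen gene. The adjusted p of Col1a2 with the block was 0.0911 for diet in aERKO and 0.0295 averaged over genotypes, and that of Bgn on high-fat diet was 0.0814. With 3 arrays a group, the median standard error of 0.202 limits which differences can pass, and signals below the array median have imprecise fold changes.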

Other observations

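Some matrix genes outside the collagens showed wide differences without passing the adjusted threshold, and they were picked after their values were seen. Mmp12, which encodes macrophage elastase, had a signal of 189.4, 162.5 and 135.9 in aERKO on high-fat diet and at most 51.79 in the other 9 samples. Its limma difference was 2.14 ± 0.594 for diet in aERKO (adjusted p = 0.176) and 1.97 ± 0.594 for genotype on high-fat diet (adjusted p = 0.116). The 9 lower samples were below the array median, so Mmp12 passed the signal rule only through the group where it was high. These differences are therefore no independent support. Ctsk, which encodes the collagen-degrading protease cathepsin K, lay at 32.02, 52.18 and 47.71 in aERKO on high-fat diet, below the other 9 samples at 82.9 to 156.1. The difference was -1.10 ± 0.333 for diet in aERKO (adjusted p = 0.216).

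Tgfbr3, which encodes the TGF-beta co-receptor betaglycan, had a signal of 834.7, 750.9 and 739.2 in aERKO on high-fat diet and 1009 to 1153 in WT on high-fat diet, a difference of -0.48 ± 0.117 (adjusted p = 0.0546). Efemp1, which encodes the elastic fibre protein fibulin-3, was 670.4, 485.3 and 483.9 in WT on normal diet, below all 9 other samples, which lay at 706.2 to 943.2. Its difference was 0.56 ± 0.153 for genotype on normal diet (adjusted p = 0.119) and 0.62 ± 0.153 for diet in WT (adjusted p = 0.224), and these comparisons share the WT normal-diet samples.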
